A study of Mus musculus with 3 samples.

Results

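Cd40, Cd80, Cd86, Cd83, Cd274, Cd69 and Cd72, which encode surface proteins of costimulation and leukocyte activation, were followed across single-cell libraries from mouse thalamus. The 7 genes were chosen by name, and all 7 were found among the 20586 genes of the count table, by library and by the cluster number the authors gave each cell. CD45+ cells, which in brain are mostly microglia but can be any leukocyte, were collected 4 hours after an intracerebroventricular injection. There were 3 libraries, 1 for each group. The library WT+IL33 came from mice labelled Cx3cr1-creER Heterozygous that received the cytokine IL-33. The library cKO+IL33 came from mice labelled Cx3cr1-creER Heterozygous:ST2 Flox homozygous, which also received IL-33. The library WT+Vehicle came from Cx3cr1-creER Heterozygous mice given vehicle. The recombinase allele was therefore shared by every group, controls included. Cx3cr1 drives it in microglia and other macrophages, and Il1rl1 encodes ST2, the chain that binds IL-33. The sources used here give neither the age of the mice nor their number behind each library nor any tamoxifen dosing, and floxed mice given vehicle were not analysed here.

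These proteins set how a myeloid cell meets a lymphocyte. CD80 and CD86 bind CD28, which costimulates T cells, and CTLA-4, which restrains them, while CD274 (PD-L1) binds the inhibitory receptor PD-1. CD40 is the receiving side: when CD40 ligand engages it, TRAF adaptors carry the signal to NF-kB, and antigen-presenting cells then raise their costimulatory ligands. CD83 keeps MHC class II and CD86 at the surface by opposing the ubiquitin ligase MARCH1. CD69 is an early activation marker that pairs with the sphingosine 1-phosphate receptor S1PR1 and removes it from the surface. CD72 is a C-type lectin-like inhibitory receptor that binds SEMA4D and recruits the phosphatase encoded by Ptpn6. Resting microglia of the brain are known for low levels of most of these molecules.

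The libraries held 2202 cells (WT+IL33), 2687 cells (cKO+IL33) and 2709 cells (WT+Vehicle), with 12127214, 17480958 and 18269042 UMIs (unique molecular identifiers, 1 per captured transcript). The median depth per cell was 3951, 5119 and 5544 UMIs in the same order. At least 3 of 8 microglial markers were detected in 7594 of 7598 cells (99.9%), and the pairs of libraries shared 0 or 1 cell barcodes. WT+IL33 mixed 1107 cells that the authors called female with 1095 called male, cKO+IL33 was female in 2648 cells and WT+Vehicle was male in 2701 cells. Sex and group therefore cannot be told apart between cKO+IL33 and WT+Vehicle. UMIs of Xist and of Y-linked genes stood together in 305 cells of WT+IL33, against 3 and 7 cells. Il1rl1 itself had 70, 224 and 212 UMIs (WT+IL33, cKO+IL33, WT+Vehicle), and since the sequenced transcript ends may lie outside the floxed part, this checks nothing about the deletion. With 1 library a group there is no replicate check and no test, and every interval below is an exact 95% interval that covers counting error only.

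Cd86 (chr16:36603869-36666081, minus strand) was detected in most cells of every library, and was higher in WT+IL33 than in both others. It had 465.9 CPM (UMIs of the gene scaled to a library total of 1000000; interval 454 to 478) in WT+IL33, 194 CPM (187 to 200.4) in cKO+IL33 and 182 CPM (176 to 188) in WT+Vehicle. The WT+IL33 level was 2.56-fold that of WT+Vehicle (2.45 to 2.68), and the cKO+IL33 level was 2.40-fold lower than that of WT+IL33 (2.30 to 2.51). A UMI of Cd86 was found in 81.9%, 63.1% and 63.8% of cells in the same order, and in 71.9%, 42.9% and 42.0% once every cell was thinned to 3000 UMIs. Cd86 had the smallest ratio of the 7 genes in WT+IL33 against WT+Vehicle.

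Cd80 (chr16:38455561-38496335, plus strand), which encodes the other CD28 ligand, had its highest level in the same library. It had 65.3 CPM (60.8 to 70.0) in WT+IL33, 15.7 CPM (13.9 to 17.7) in cKO+IL33 and 13.3 CPM (11.7 to 15.1) in WT+Vehicle. WT+IL33 stood 4.91-fold above WT+Vehicle (4.25 to 5.69) and 4.15-fold above cKO+IL33 (3.61 to 4.78). In cells thinned to 3000 UMIs the share with a Cd80 UMI was 16.4% in WT+IL33, 4.46% in cKO+IL33 and 3.91% in WT+Vehicle, and in unthinned cells 25.7%, 9.19% and 8.12%.

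Cd274 (chr19:29367455-29388095, plus strand), the PD-1 ligand, had 238 UMIs in WT+IL33, 66 in cKO+IL33 and 58 in WT+Vehicle. These counts were 19.6 CPM (17.2 to 22.3), 3.78 CPM (2.92 to 4.80) and 3.17 CPM (2.41 to 4.10). WT+IL33 was 6.18-fold above WT+Vehicle (4.62 to 8.39) and 5.20-fold above cKO+IL33 (3.94 to 6.94). Both the costimulatory ligands and the inhibitory ligand were therefore higher in WT+IL33. The share of cells with a Cd274 UMI was 8.63% in WT+IL33, 2.27% in cKO+IL33 and 1.92% in WT+Vehicle, and 5.35%, 1.19% and 1.06% of thinned cells.

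Cd40 (chr2:165055627-165072948, plus strand), the receptor for CD40 ligand, was almost undetected outside WT+IL33. WT+IL33 held 1055 UMIs, cKO+IL33 5 and WT+Vehicle 8, or 87.0 CPM (81.8 to 92.4), 0.286 CPM (0.0929 to 0.667) and 0.438 CPM (0.189 to 0.863). The ratio of WT+IL33 to WT+Vehicle was 199-fold (100.5 to 461), and cKO+IL33 was 304-fold below WT+IL33 (129.9 to 939). Among unthinned cells, 23.7% of WT+IL33, 0.149% of cKO+IL33 and 0.258% of WT+Vehicle had a Cd40 UMI. Thinned, these shares were 16.9%, 0.0769% and 0.0760%, the last of them resting on 2 cells each.

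Cd83 (chr13:43784775-43803132, plus strand), the stabiliser of MHC class II and CD86, had a UMI in 80.1% of WT+IL33 cells. Its level was 755 CPM (739.7 to 771) in WT+IL33, 65.7 CPM (61.9 to 69.6) in cKO+IL33 and 58.2 CPM (54.8 to 61.8) in WT+Vehicle. WT+IL33 was 12.96-fold above WT+Vehicle (12.2 to 13.8) and 11.5-fold above cKO+IL33 (10.8 to 12.2). The unthinned shares of cells in cKO+IL33 and WT+Vehicle were 25.0% and 26.6%, and the thinned shares were 73.7%, 14.9% and 15.4% (WT+IL33, cKO+IL33, WT+Vehicle).

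Cd69 (chr6:129267325-129275436, minus strand), the early activation marker, had the largest ratio to WT+Vehicle of the 7 genes. There were 1539 UMIs in WT+IL33, 9 in cKO+IL33 and 3 in WT+Vehicle, or 127 CPM (121 to 133), 0.515 CPM (0.235 to 0.977) and 0.164 CPM (0.0339 to 0.480). The ratio was 773-fold against WT+Vehicle, with an interval of 264 to 3752 because of the 3 UMIs below it, and 246-fold against cKO+IL33 (129.5 to 540.1). Cells with a Cd69 UMI made up 29.1% of WT+IL33, 0.261% of cKO+IL33 and 0.111% of WT+Vehicle, and 22.7%, 0.192% and 0.0380% of thinned cells.

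Cd72 (chr4:43446462-43454628, minus strand), the inhibitory receptor, was rare in cKO+IL33 and WT+Vehicle and found in most cells of WT+IL33. It had 577 CPM (563 to 590.4) in WT+IL33, 6.41 CPM (5.28 to 7.71) in cKO+IL33 and 7.77 CPM (6.55 to 9.16) in WT+Vehicle. WT+IL33 was 74.2-fold above WT+Vehicle (62.8 to 88.2) and 90.0-fold above cKO+IL33 (74.7 to 109). Its share of cells was 73.8% in WT+IL33, 3.61% in cKO+IL33 and 4.61% in WT+Vehicle, and 67.2%, 2.04% and 2.13% of thinned cells.

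The start-site windows of Cd72 and Cd80 are shown because the genes differed between the libraries by very different ratios (74.2-fold and 4.91-fold) and because each window held 1 of 4 searched motifs. Of the 7 genes, 3 (Cd72, Cd80 and Cd274) were in the RefSeq promoter table of GRCm38.p6, which spans 250 bases before to 50 bases after a gene's start. The sequences run 5′ to 3′ on the gene's strand and stop at the last base before the first exon. Capitals mark the motif. The Cd72 window is chr4:43454629-43454876 on the minus strand, and its capitals are the PU.1-type motif GAGGAAGT read on the opposite strand, ending 39 bases before the exon. The Cd80 window is chr16:38458683-38458932 on the plus strand, intronic in the longest GENCODE transcript. Its capitals match the loose AP-1-type pattern TGANTCA, which reads the same on both strands, 35 bases before the exon. The N allows any base, here T, and a stricter AP-1 motif was not searched.
Cd72: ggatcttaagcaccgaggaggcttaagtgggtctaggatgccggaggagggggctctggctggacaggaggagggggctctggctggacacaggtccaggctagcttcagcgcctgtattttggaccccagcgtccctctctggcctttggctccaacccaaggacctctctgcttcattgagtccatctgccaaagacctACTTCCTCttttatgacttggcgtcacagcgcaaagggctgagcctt
Cd80: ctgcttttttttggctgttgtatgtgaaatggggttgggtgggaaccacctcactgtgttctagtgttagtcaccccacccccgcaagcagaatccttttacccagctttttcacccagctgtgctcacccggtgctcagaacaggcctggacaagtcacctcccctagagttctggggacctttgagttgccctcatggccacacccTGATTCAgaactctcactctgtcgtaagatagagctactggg
The motifs were searched on both strands of 32851 windows of 300 bases. GAGGAAGT was in 3.20% of them, TGANTCA in 7.81%, the interferon-stimulated response repeat in 3.44% and the NF-kB consensus in 4.51%. The NF-kB consensus and the interferon repeat were found in none of the 3 windows, and the Cd274 window held none of the 4 motifs. A match is a description of these letters only, and an absent match says only that they were not in this window.

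**Figure D1:**
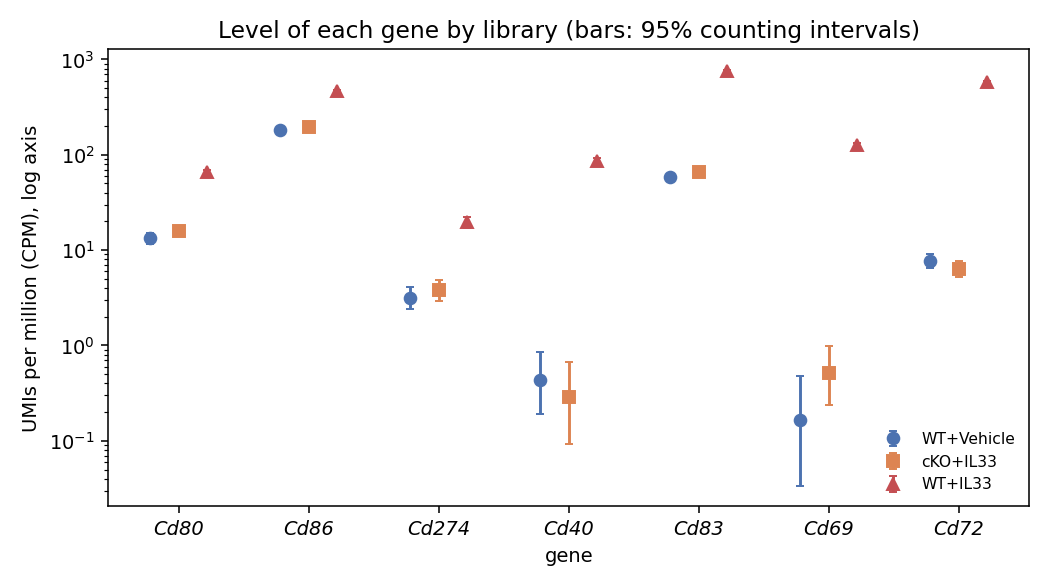
Level of each gene (x axis) in the 3 libraries, in CPM on a log axis (y axis) with 95% exact Poisson intervals of counting error. The WT+IL33 points lie above both others for all 7 genes, from 2.56-fold over WT+Vehicle for Cd86 to 773-fold for Cd69.

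The 7 genes were also set beside all genes. The comparisons of WT+IL33 with WT+Vehicle and of cKO+IL33 with WT+IL33 share a library, so they are not independent. A gene counted as different where it was at least 2-fold apart with an interval that left out 1, among 8385 genes with a mean of at least 10 CPM over the libraries. Of the 7 genes, 6 passed that minimum, and Cd274, with a mean of 8.86 CPM, did not. Cd80, Cd86 and Cd83 were above 10 CPM in every library, but Cd40, Cd69 and Cd72 passed only through their level in WT+IL33, so for these 3 the minimum itself fixed the direction and the counts below support nothing. All 6 were higher in WT+IL33 than in WT+Vehicle, where 10.6% of all genes were (9.3% were lower and 19.9% differed either way). All 6 were lower in cKO+IL33 than in WT+IL33, where 8.91% of all genes were (10.2% were higher and 19.1% differed either way). The median log2 ratio of all 7 genes was 3.67 in WT+IL33 against WT+Vehicle, beside 0.04 over the 8385 genes. In cKO+IL33 against WT+IL33 it was -3.50, beside 0.01.

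Between cKO+IL33 and WT+Vehicle, 0 of the 6 genes counted as different, where 0.763% of all genes did (0.513% higher and 0.25% lower in cKO+IL33). Cd86 was 1.07-fold higher in cKO+IL33 (1.02 to 1.12) and Cd83 1.13-fold higher (1.04 to 1.23), so both differed beyond counting error but by little, and in cells of at most 5000 UMIs the log2 ratio of Cd86 turned from 0.09 to -0.13. The interval included 1 for the other 5 genes. Cd80 was 1.18-fold higher in cKO+IL33 (0.992 to 1.41), Cd274 1.19-fold higher (0.823 to 1.72) and Cd72 1.21-fold lower (0.940 to 1.57). For Cd40, with 5 and 8 UMIs (1.53-fold lower, 0.442 to 5.95), and Cd69, with 9 and 3 UMIs (3.14-fold higher, 0.782 to 18.0), a difference of 2-fold either way was not detectable at this depth. In each gene's order of library levels, WT+IL33 was first. Library levels of cKO+IL33 and WT+Vehicle lay within counting error of each other except for Cd86 and Cd83. Within the authors' clusters 0, 2, 3 and 5, the interval left out 1 for Cd83, Cd86 and Cd80 alone. Against WT+Vehicle, cKO+IL33 had 1.51-fold more Cd83 in cluster 3 (1.28 to 1.78) and 1.30-fold more Cd86 in cluster 5 (1.02 to 1.65). Cd80 was 4.10-fold lower in cluster 5 (1.14 to 22.2), on 3 and 14 UMIs. Cd69 had 6 UMIs there against 0.

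The higher levels in WT+IL33 were spread unequally over the authors' clusters. Cluster 1 held 1815 of the 2202 cells of WT+IL33, 35 cells of cKO+IL33 and 20 of WT+Vehicle, while cluster 0 held 144, 1374 and 1327. Because the authors made the clusters from the counts of these same cells, levels across them are a description. Cluster 1 carried 86.3% of the UMIs of WT+IL33 and from 83.2% (Cd274) to 96.0% (Cd80) of the UMIs of each of the 7 genes there. Levels below use groups of at least 50 cells unless a smaller number is given.

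Within WT+IL33, Cd40, Cd69 and Cd274 differed widely between clusters. Cd274 was at 18.9 CPM in cluster 1, 33.0 CPM in cluster 3 and 76.0 CPM in cluster 5, against 1.94 and 2.29 CPM in clusters 0 and 2, on 1 UMI each. Cd40 was at 94.9 CPM in cluster 1 and 143 CPM in cluster 5 (59 cells), against 1.94 CPM in cluster 0, 2.29 CPM in cluster 2 (102 cells) and 14.7 CPM in cluster 3 (67 cells). Cd69 was at 137 CPM and 231 CPM in clusters 1 and 5, against 7.76, 6.87 and 7.33 CPM in clusters 0, 2 and 3. The levels in clusters 0, 2 and 3 rest on 4, 3 and 2 UMIs for Cd69 and on 1, 1 and 4 UMIs for Cd40, so both genes were rarely detected there. The 15 cells of cluster 4 in WT+IL33, too few for a level to be compared, held 7 Cd40 UMIs and 19 Cd69 UMIs.

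Cd72, Cd83 and Cd86 were present in every cluster of WT+IL33. Cd72 was at 124 CPM in cluster 0, 624 in cluster 1, 66.4 in cluster 2, 444 in cluster 3 and 634 in cluster 5. Cd83 was at 223, 829, 142, 367 and 465 CPM in the same order, and Cd86 at 299, 481, 270.1, 502 and 523 CPM. As a share of the cluster 1 level, the cluster 0 level ranged from 2.04% for Cd40 and 5.67% for Cd69 through 10.3% for Cd274, 19.9% for Cd72, 24.0% for Cd80 and 26.9% for Cd83 to 62.1% for Cd86. The part of free RNA in the cluster 0 levels was not tested.

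Cluster 5 of WT+IL33 differed from cluster 1 in some of the genes. Cd274 was 4.02-fold higher there than in cluster 1 (2.56 to 6.06), Cd69 1.69-fold higher (1.33 to 2.12) and Cd40 1.51-fold higher (1.11 to 2.01). Cd80 was 2.76-fold lower (1.45 to 6.06) and Cd83 1.78-fold lower (1.52 to 2.10), while Cd86 and Cd72 had ratios of 1.09 (0.933 to 1.26) and 1.02 (0.884 to 1.16). The inhibitory ligand and the CD28 ligand Cd80, with 9 UMIs in cluster 5, thus differed in opposite directions between these 2 clusters. A low Cd80 level was not particular to cluster 5. Against cluster 1, Cd80 was also lower in cluster 0 (4.16-fold, 2.18 to 9.13), cluster 2 (5.29-fold, 2.42 to 14.5) and cluster 3 (3.96-fold, 1.69 to 12.2). Cd274 in cluster 3 was 1.74-fold higher than in cluster 1, with an interval that included 1 (0.786 to 3.38). In WT+Vehicle, Cd274 was at 15.8 CPM in cluster 5 (11 UMIs) and 2.40 CPM in cluster 0, a 6.56-fold difference (2.84 to 14.4). In cKO+IL33 these levels were 4.90 CPM (3 UMIs) and 2.86 CPM, a ratio of 1.71 whose interval included 1 (0.331 to 5.65).

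**Figure D2:**
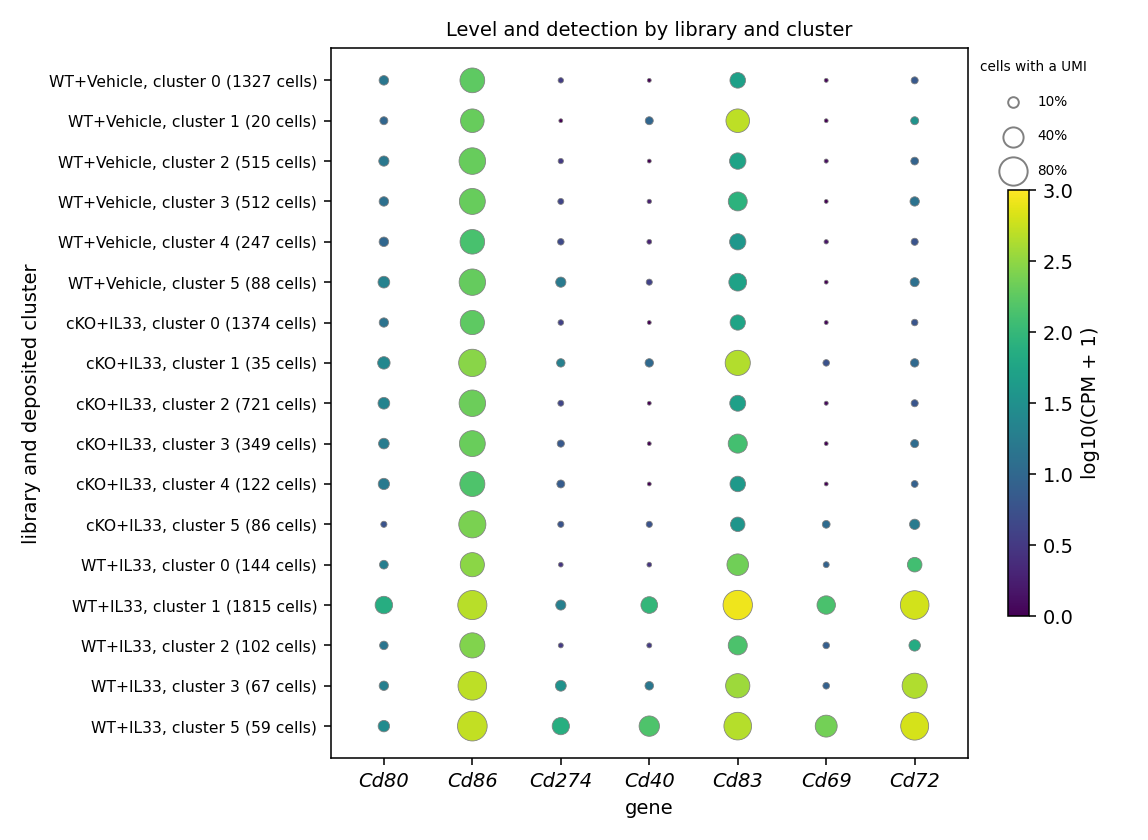
Each gene (x axis) by library and authors' cluster (y axis, groups of at least 20 cells). Circle area grows with the percent of cells with a UMI and colour gives log10(CPM + 1). In WT+IL33, Cd40 and Cd69 are bright in clusters 1 and 5, whereas Cd86 is present in every row, and Cd83 is bright in cluster 1 of all 3 libraries.

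Cells of WT+IL33 that fell in clusters shared with the other libraries also had higher levels of some of the genes than the same clusters of WT+Vehicle. In cluster 0, Cd72 was 21.5-fold higher in WT+IL33 (14.6 to 32.0), Cd83 4.59-fold (3.70 to 5.65) and Cd86 1.66-fold (1.40 to 1.97). Cd80 was not resolved there, at 17.5 and 14.0 CPM (1.24-fold, 0.554 to 2.44). Cd69 was at 7.76 CPM against 0.1201 CPM (64.6-fold, 6.39 to 3181), on 4 UMIs in 144 cells and 1 UMI in 1327 cells. Cd40 had 1 UMI against 0, and Cd274 1 UMI against 20 (1.24-fold lower, 0.198 to 51.3), so neither was resolved.

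In cluster 3 the same 3 genes were higher in WT+IL33 than in WT+Vehicle: Cd72 by 35.3-fold (24.9 to 50.8), Cd83 by 4.40-fold (3.47 to 5.54) and Cd86 by 2.54-fold (2.10 to 3.05). Cd274 joined them there at 10.7-fold (3.93 to 28.5), on 9 and 11 UMIs, and Cd40 at 17.5-fold (2.96 to 119), on 4 and 3 UMIs. In cluster 2 the ratios were 8.64-fold for Cd72 (4.91 to 15.3), 2.62-fold for Cd83 (1.93 to 3.52) and 1.35-fold for Cd86 (1.10 to 1.65), the smallest of the 4 shared clusters for each of the 3 genes. Cd69 was 23.2-fold higher in cluster 2 (1.87 to 1220.0), on 3 UMIs and 1 UMI. In cluster 5, Cd72 was 55.3-fold higher (27.6 to 129.8), Cd40 49.97-fold (13.1 to 424), Cd83 8.76-fold (6.10 to 12.9), Cd274 4.82-fold (2.30 to 10.8) and Cd86 2.70-fold (2.15 to 3.41). Cd69 had 79 UMIs in cluster 5 of WT+IL33 and 0 in that of WT+Vehicle, which is at least 53.7-fold higher against a floor of 3 UMIs (4.30 CPM) in the vehicle cluster. Cd80 differed beyond counting error in none of the 4 clusters that both libraries filled (1.31-fold in cluster 5, 0.501 to 3.25), with only 5 to 9 UMIs of it in each of these clusters of WT+IL33.

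The few cluster 1 cells of the other libraries carried Cd83, with less of Cd72 and Cd69 than cluster 1 of WT+IL33. In cKO+IL33 the 35 cells of cluster 1 had 450.0 CPM of Cd83, 8.17-fold above cluster 0 of that library (6.49 to 10.2). In WT+Vehicle the 20 cells had 496 CPM, 10.2-fold above cluster 0 (7.63 to 13.4). Cd72 had 2 UMIs and 4 UMIs in these cells (9.28 and 33.6 CPM, against 624 CPM in cluster 1 of WT+IL33), and Cd69 had 1 UMI and 0. Against their own cluster 0, Cd72 was 5.84-fold higher in WT+Vehicle (1.53 to 15.9), and in cKO+IL33 Cd86 was 1.62-fold higher (1.24 to 2.08) and Cd274 6.497-fold higher (1.64 to 18.9), the last on 4 UMIs. Cd83 thus stood high in cluster 1 of every library, a cluster made from these same cells and possibly with Cd83 among its genes. Cluster 3 had more Cd83 than cluster 0 as well, 125 CPM against 55.1 CPM in cKO+IL33 and 83.3 CPM against 48.6 CPM in WT+Vehicle. The traces of Cd69 and Cd40 in cKO+IL33 lay mostly in cluster 5, which held 6 of the 9 Cd69 UMIs and 3 of the 5 Cd40 UMIs but 3.50% of all UMIs.

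Within WT+IL33, the levels were lower in cells called female than in cells called male. The gap ran from 1.08-fold for Cd86 (452 and 487 CPM; 1.02 to 1.14) to 1.60-fold for Cd69 (103 and 164 CPM; 1.45 to 1.77). Cd274 was 1.52-fold lower (1.17 to 1.98), Cd40 1.35-fold (1.20 to 1.53), Cd72 1.30-fold (1.24 to 1.36), Cd80 1.18-fold (1.02 to 1.36) and Cd83 1.15-fold (1.10 to 1.20). The call equals the presence of an Xist UMI in 100% of the cells, and the cells called female were also deeper, with a median of 4619 UMIs against 3610. Among 802 cells with Xist and no Y-linked UMI and 670 cells with Y-linked UMIs and no Xist, whose median depths were 3870.5 and 3780 UMIs, the gap was 2.02-fold for Cd69 (1.76 to 2.33) and 1.06-fold for Cd86 (0.988 to 1.13). Cluster 1 held 74.2% of the former and 87.2% of the latter, and its part in the gap was not tested. The number of mice behind either set of cells is not known, so sex and animal cannot be told apart. With male-called cells alone, the log2 ratios of Cd80, Cd86 and Cd83 in WT+IL33 against WT+Vehicle were 2.34, 1.42 and 3.79. With female-called cells alone, those in cKO+IL33 against WT+IL33 were -1.89, -1.22 and -3.42. Cd40, Cd69 and Cd72 counted in the same directions, which the minimum fixed. The 305 cells of WT+IL33 with Xist and Y-linked UMIs together were among its female-called cells, so sex was not held constant in that second comparison. By the authors' cell-cycle phase, Cd69 in WT+IL33 was at 127 CPM in G1, 110.1 CPM in S and 161 CPM in G2M, each far above the library totals of cKO+IL33 and WT+Vehicle.

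The genes also differed in how their UMIs were spread over the cells of WT+IL33. In cells thinned to 3000 UMIs, the variance over the mean (1 for a Poisson count) was 2.94 for Cd83, 2.40 for Cd69, 2.11 for Cd72 and 1.93 for Cd40. It was 1.25 for Cd86, 1.22 for Cd80 and 1.19 for Cd274. The 5% of unthinned cells with most UMIs of a gene held 66.8% of all Cd274 UMIs, 46.8% for Cd40, 43.5% for Cd69, 37.6% for Cd80, 22.7% for Cd83, 21.3% for Cd72 and 18.5% for Cd86. That share is large for any gene with few UMIs: Cd274 had the largest share and the smallest variance over mean. No single cell decided a level: the most UMIs in 1 cell were 11 of 1055 for Cd40, 17 of 1539 for Cd69, 32 of 6994 for Cd72 and 37 of 9157 for Cd83. These figures cover depth and cluster differences as well as spread among like cells.

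Counted together, the thinned cells of WT+IL33 had a UMI of 2.74 of the 7 genes on average, against 0.657 in cKO+IL33 and 0.647 in WT+Vehicle. None of the 7 was seen in 3.19% of the 1849 thinned cells of WT+IL33, in 45.7% of 2601 in cKO+IL33 and in 46.5% of 2632 in WT+Vehicle. At least 3 were seen in 57.5%, 0.461% and 0.684%, and at least 5 in 8.44% of WT+IL33 cells and in 0 cells of the others. No thinned cell of any library had all 7. In cluster 1 of WT+IL33 (1565 thinned cells) the average was 2.92 genes, and in cluster 0 (92 thinned cells) it was 1.35. Cells with Xist and Y-linked UMIs together (305, 3 and 7 before thinning, in WT+IL33, cKO+IL33 and WT+Vehicle) were not left out here. The part of doublets in these counts was not tested.

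**Figure D3:**
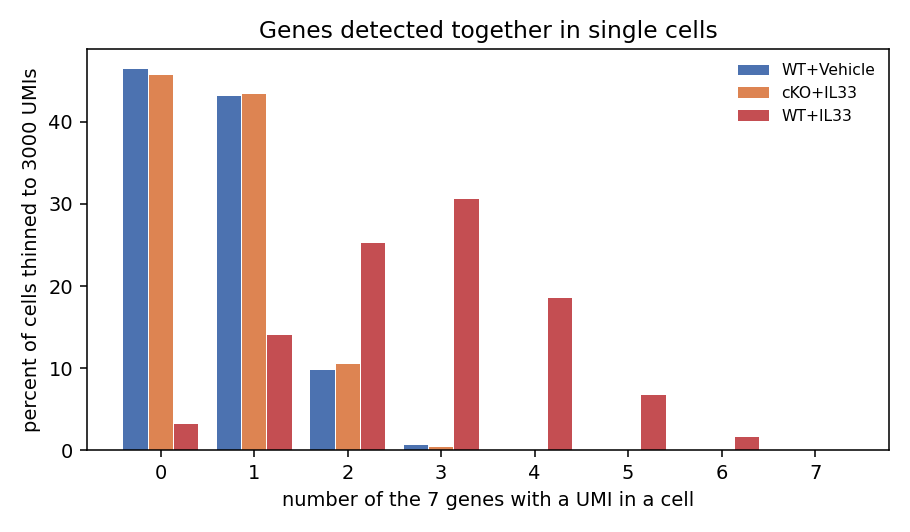
Number of the 7 genes with at least 1 UMI per cell, as percent of cells of each library, in cells thinned to 3000 UMIs (1849, 2601 and 2632 cells). The cKO+IL33 and WT+Vehicle distributions pile up at 0 and 1 gene, while 57.5% of WT+IL33 cells have 3 or more.

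Inside cluster 1 of WT+IL33, cells with one of the genes tended to have another, but weakly. Over the 21 pairs, taken with the genes in the order Cd40, Cd80, Cd86, Cd83, Cd274, Cd69, Cd72, the second gene was found more often in cells with the first in 18, and in 5 of these the exact binomial intervals were apart. Cd69 was found in 37.9% of cells with Cd80 and 22.0% of cells without, in 34.9% and 22.6% by Cd40, and in 27.4% and 15.4% by Cd83. Cd80 was found in 27.7% of cells with Cd40 and 16.1% of those without, and Cd72 in 79.6% of cells with Cd80 and 70.9% of those without. Cd69 entered 3 of these 5 pairs and Cd80 3, while neither Cd86 nor Cd274 entered any. Pearson correlations of the thinned counts ranged from -0.04 to 0.19 over the 21 pairs and are a description of 1 library, since the cells share it. Cells of WT+IL33 with Xist and Y-linked UMIs together were not left out of these pairs, and the part of doublets in them was not tested.

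**Figure D4:**
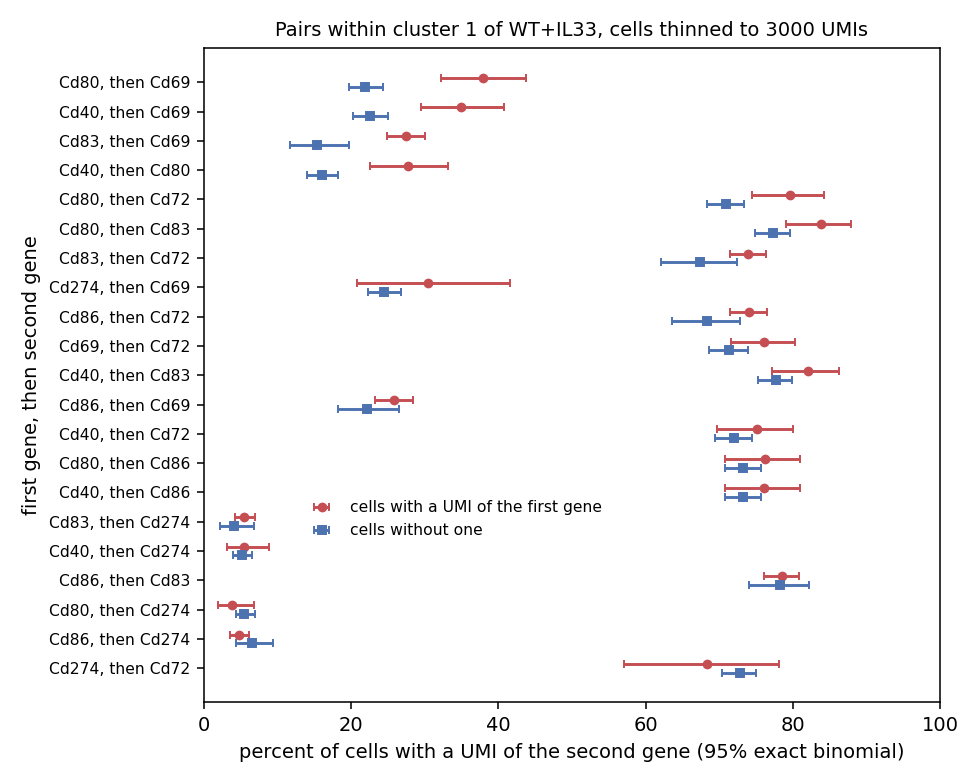
Percent of thinned cluster 1 cells of WT+IL33 that had a UMI of the second gene, among cells with (red circles) and without (blue squares) a UMI of the first, with 95% exact binomial intervals. The intervals are apart in 5 of 21 pairs, with the widest gap for Cd69 by Cd80 (37.9% against 22.0%).

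Patterns over the 15 groups of library and cluster with at least 50 cells were compared with those of all 8385 genes, as Pearson r of log2(CPM + 1). For Cd72 the nearest were Cxcl16 (a chemokine), Tlr2 (a pattern recognition receptor) and Arl5c, all at r = 0.99. For Cd83 they were Clec4a1 (r = 0.98), Igsf6 and C3ar1 (both r = 0.97), and for Cd86 Fmnl2 (r = 0.98), Ccl9 and Mllt6 (both r = 0.97). Near to Cd69 were Traf2 (r = 0.96) and Pgap2 (r = 0.95), to Cd40 Bbx (r = 0.97), Alkbh1 and Ccl7 (both r = 0.96), and to Cd274 Acod1 (r = 0.96), Ddx24 (r = 0.93) and Rufy3 (r = 0.92). Cd80 had the loosest likeness, with Tbl1x (r = 0.89), Mast4 (r = 0.87) and Nomo1 (r = 0.85). The groups share libraries and depth, which these values do not separate from the pattern itself. With a pseudocount of 10 CPM in place of 1, only 9 of the 21 genes were named again, and Cd40 and Cd69 became each other's near neighbours (r = 0.98).

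Other genes of the same pathways were read from lists, by the same minimum, which a gene such as Traf1, Fas or Cd44 can also pass only through WT+IL33. S1pr1, below 10 CPM in WT+IL33, passed it only through cKO+IL33 and WT+Vehicle. The direction of a gene of either kind is fixed by the minimum, so its place in a count below supports nothing. Beside each list's counts stand the 10.6% of all genes that were higher and the 9.3% that were lower in WT+IL33 than in WT+Vehicle. Among other ligands of the CD80 and CD86 family, 3 of 5 were measured at a mean of at least 10 CPM, 1 counted as higher in WT+IL33 than in WT+Vehicle and 1 as lower. Icosl, the ligand of ICOS, was at 483 CPM in WT+IL33, 68.7 CPM in cKO+IL33 and 67.1 CPM in WT+Vehicle, 7.19-fold higher in WT+IL33 than in WT+Vehicle. Vsir, which encodes the inhibitory ligand VISTA, went the other way, at 370.5, 1137 and 869 CPM, 2.35-fold lower than in WT+Vehicle. Cd276 did not pass the rule, at 23.6, 19.7 and 23.3 CPM. The list's median log2 ratio was 0.02, so the family of ligands did not share the direction of Cd80, Cd86 and Cd274.

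Of the chain below CD40, 7 of 12 adaptors and alternative NF-kB genes were higher in WT+IL33 than in WT+Vehicle (10.6% of all genes). None was lower (9.3% of all genes), and the median log2 ratio was 1.21. Traf1, an adaptor, had 781 UMIs in WT+IL33, 6 in cKO+IL33 and 4 in WT+Vehicle, a 294-fold ratio to WT+Vehicle (114 to 1082). Nfkb2 (11.7-fold) and Relb (7.06-fold), subunits of the alternative NF-kB pathway, and Birc3 (7.14-fold), a ubiquitin ligase at the TRAF complex, were higher too. In cKO+IL33 against WT+IL33, 7 of the 12 were lower (8.91% of all genes) and 1, Traf5, was higher (2.06-fold, where 10.2% of all genes were higher). CD40 ligand itself (Cd40lg) had 0 UMIs in every library, where 3 UMIs would be 0.247, 0.172 and 0.164 CPM (WT+IL33, cKO+IL33, WT+Vehicle).

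Of the partners of CD69 and CD72, 1 of 4 counted as higher in WT+IL33 than in WT+Vehicle and 1 as lower. S1pr1, the receptor that CD69 removes from the surface, was at 3.13 CPM in WT+IL33, 29.2 CPM in cKO+IL33 and 36.5 CPM in WT+Vehicle, 11.7-fold lower than in WT+Vehicle (8.40 to 16.6). Ptpn6, the phosphatase recruited by CD72, was 2.03-fold higher (346 against 170.2 CPM). Sema4d, the ligand of CD72, was at 63.4 CPM against 116 CPM and Grb2 at 277 CPM against 163 CPM, both under 2-fold. Among genes of MHC class II and CD86 turnover, 3 of 7 were at or above the minimum and 2 were higher in WT+IL33. Cd74, the class II invariant chain, was 5.94-fold higher, March1, whose product CD83 opposes, 2.71-fold higher, and March8 had a ratio of 1.08. The class II chain genes H2-Ab1, H2-Aa and H2-Eb1, and Ciita, were below the minimum. H2-Ab1 was at 9.24, 10.4 and 9.25 CPM (WT+IL33, cKO+IL33, WT+Vehicle). H2-Aa had 21, 32 and 5 UMIs, H2-Eb1 10, 36 and 4, and Ciita 4, 4 and 1. H2-Aa was 6.33-fold higher in WT+IL33 than in WT+Vehicle (2.32 to 21.5) and H2-Eb1 3.77-fold (1.09 to 16.5). None of these chain genes had its highest level in WT+IL33. These low genes were named after their values were seen.

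A list of inhibitory receptors split: of 10 measured, 3 were higher in WT+IL33 than in WT+Vehicle (10.6% of all genes) and 1 was lower (9.3% of all genes). The median log2 ratio was 0.01. Siglece (4.28-fold), Clec4a2 (4.07-fold) and Cd300lf (2.56-fold) were higher, and Cd33 was 2.95-fold lower (218 against 642 CPM). Among list genes at a mean of at least 10 CPM, Cd300lf was the 1 that counted as different between cKO+IL33 and WT+Vehicle, at 22.7 and 8.16 CPM, beside 20.9 CPM in WT+IL33. Of other activation genes, 5 of 6 measured were higher in WT+IL33 than in WT+Vehicle (10.6% of all genes), with a median log2 ratio of 2.74. They included the death receptor Fas (105-fold), the adhesion receptor Cd44 (63.9-fold), the actin bundler Fscn1 (7.58-fold, not a surface protein) and the adhesion ligand Icam1 (5.97-fold). In cKO+IL33 the same 4 genes were 67.1-, 66.4-, 7.14- and 5.16-fold lower than in WT+IL33.

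None of 8 costimulatory ligands of the TNF family and none of 4 T cell counter-receptors reached a mean of 10 CPM. Among the ligands, Tnfsf9 had 307, 20 and 18 UMIs (WT+IL33, cKO+IL33, WT+Vehicle), Tnfsf18 64, 7 and 2, and Cd70 69, 0 and 0. The counter-receptors of the CD80 and CD86 family were near absent, with 0, 4 and 1 UMIs of Cd28 and 0, 1 and 1 of Ctla4. Pdcd1 had 9, 42 and 50 UMIs and Icos 30, 117 and 189. These low genes were chosen for mention after their values were seen.

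**Figure D5:**
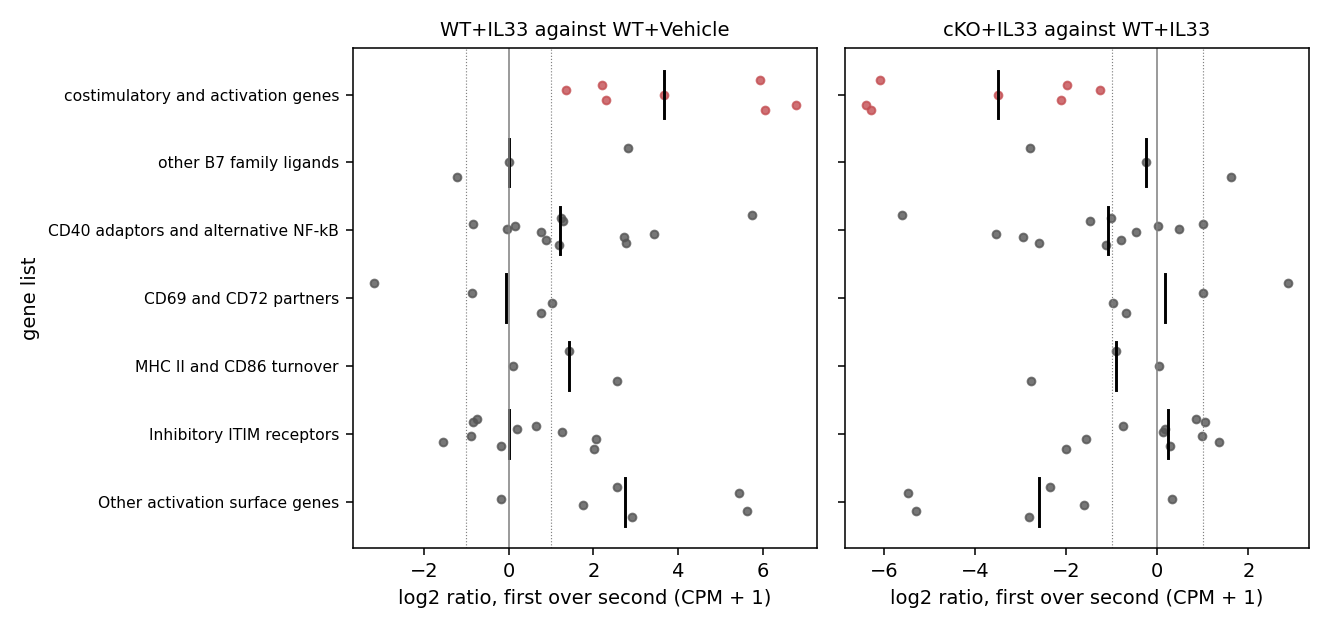
Log2 ratio (x axis, CPM with a pseudocount of 1) of WT+IL33 over WT+Vehicle (left) and of cKO+IL33 over WT+IL33 (right), for the 7 genes in red and the genes of each list at a mean of at least 10 CPM in grey (y axis). Each point is a gene, each black bar a median and the dotted lines mark 2-fold. The 7 genes lie beyond 2-fold in both panels (medians 3.67 and -3.50), and the receptors listed as inhibitory scatter around 0 (median 0.01 on the left).

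Markers of other leukocytes were low in every library but did not all move alike. Dendritic cell markers, 3 of 5 with a UMI, summed to 12.8 CPM in WT+IL33, 6.24 in cKO+IL33 and 4.82 in WT+Vehicle, with Clec9a and Cd209a at 0 in all. Monocyte markers, 2 of 4 with a UMI, summed to 7.17, 3.78 and 2.52 CPM, with Ly6c2 and Chil3 at 0 in all. Both sums were higher in WT+IL33, in the direction of the 7 genes, but Ccr2, a monocyte marker, was lower there (0.990 CPM, against 2.80 and 1.97 CPM) and Vcan was higher (6.18 CPM, against 0.972 and 0.547 CPM). T cell markers summed to 0.165, 1.20 and 0.219 CPM (Cd3e, Cd3d, Cd3g, Trac and Trbc2 at 0 in WT+IL33), and border macrophage markers were lower in WT+IL33, at 14.3 CPM against 93.3 and 78.8 (Lyve1 at 0 in WT+IL33). B cell markers summed to 158, 189 and 211 CPM, nearly all from Ighm, with Cd79a and Pax5 at 0 in WT+IL33. Markers of NK cells and neutrophils summed to at most 0.660 and 5.64 CPM in any library, and mast cell markers were at 0. The microglial markers summed to 14937, 23336 and 21913 CPM, lowest in WT+IL33, although 1 of the 8, Cx3cr1, was highest there (3118 CPM, against 2822 and 2593). Leaving out cells with 2 or more UMIs of other leukocyte or border macrophage markers kept 1646, 1770 and 1606 cells (WT+IL33, cKO+IL33, WT+Vehicle). With Ighm not counted as a marker, 2158, 2638 and 2674 cells were kept. In the former cells, the log2 ratios of Cd80, Cd86 and Cd83 in WT+IL33 against WT+Vehicle were 2.19, 1.36 and 3.77. In cKO+IL33 against WT+IL33 they were -1.99953, -1.29 and -3.55. Cd40, Cd69 and Cd72 counted in the same directions, which the minimum fixed.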

How the data were processed

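Raw UMI counts per gene and cell were deposited as 1 table for all libraries (10x Chromium, per the labels' protocols), and the labels describe a tissue homogenizer, a 22% Percoll gradient and sorting. A second table gives, per the file headers, each cell's library, sex call, cell-cycle phase and cluster number, and the mitochondrial and ribosomal percent of its UMIs by the authors. Cell Ranger 5.0, Seurat 4.0.1 and GRCm38 are named in the submitters' processing notes, with no role or order. The sources used here give neither the filter that left these cells, of 2100 to 19987 UMIs, nor any removal of doublets, and no doublet caller was run. A doublet of 2 cells can join genes that neither cell has together. Median mitochondrial percent was 2.27, 2.43 and 2.99 and median ribosomal percent 10.6, 12.8 and 15.0 (WT+IL33, cKO+IL33, WT+Vehicle).

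UMIs were summed per library, or per library and cluster, and divided by their total to give CPM. Levels have exact Poisson intervals, ratios exact conditional binomial (Clopper-Pearson) intervals and shares exact binomial intervals, at 95%. Log2 ratios used a pseudocount of 1 CPM. A level of 0 was set to 3 UMIs for a bound. Thinning to 3000 UMIs left out 353, 86 and 77 cells. The arithmetic was tested on simulated data. No cell type known to lack these genes filled a group here, so WT+Vehicle serves as the background of each share. Levels of different genes are not compared, since counts are not per transcript length. Positions are from GENCODE M21 (GRCm38) and promoter sequences from RefSeq (GRCm38.p6). Python 3.11.15, numpy 2.4.6, scipy 1.17.1 and pandas 2.3.3 were used.

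The genes named were the 7, the 3 with the highest r for each, and up to 4 per list with the largest log2 ratio of WT+IL33 to WT+Vehicle among those at a mean of 10 CPM. The 7 genes and the lists were chosen with earlier results of these data known. Vtcn1 and Mcpt4 of the lists were not matched in the table. A gene that the rule for named genes gives is not reported here.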

Additional observations from a re-analysis of the deposited data

How the results depend on the processing

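The number of the 7 genes counted as different was the same under the alternatives tried (cells of 1 sex call, cells without other leukocyte or border macrophage markers with and without Ighm, G1 cells, cells without Xist and Y-linked UMIs together, thinned cells, cells of at most 5000 UMIs, totals without mitochondrial and ribosomal genes, a mean over cells, each gene's top cell left out and a minimum of 50 CPM in either library, which left 2 of them to count between cKO+IL33 and WT+Vehicle), with 1 exception. With each cell weighted equally, 1 of 6 genes (Cd69, which had 9 and 3 UMIs) passed 2-fold between cKO+IL33 and WT+Vehicle, where no interval was applied. In both comparisons with WT+IL33 these numbers hold Cd40, Cd69 and Cd72, whose direction the minimum fixed, so for them an unchanged count supports nothing. With no minimum, 7 of 7 genes counted in both comparisons with WT+IL33. The leukocyte alternative that ignored Ighm was chosen after seeing the data. A single sex call could not be used between cKO+IL33 and WT+Vehicle.

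The count over all genes followed the minimum, since it changes which genes are tested. For WT+IL33 against WT+Vehicle it was 1665 of 8385 genes, 883 of 4104 at 50 CPM in either library and 3633 of 18185 with no minimum. Between the IL-33 libraries it was 1603, 891 of 4151 and 3406 of 18086, and between cKO+IL33 and WT+Vehicle 64, 17 of 3585 and 600 of 18472. Of the log2 ratios of single genes, 4, 5 and 1 moved beyond their counting interval in these comparisons and none of the called ratios changed sign, while the uncalled ratio of Cd86 between cKO+IL33 and WT+Vehicle turned from 0.09 to -0.13 in cells of at most 5000 UMIs and that of Cd40 from -0.16 to 0.19 in G1 cells. The widest of these moves was Cd69 in cKO+IL33 against WT+IL33, from -6.40 to -6.79 in cells of at most 5000 UMIs. No paired analysis was possible because each group had 1 library. Depth limited Cd40 and Cd69 in cKO+IL33 and WT+Vehicle, and Cd274 and Cd80 within clusters.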
